A study of Mus musculus with 2 samples.

Results

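The genes described here are 7 named long non-coding RNA genes of the mouse, H19, Meg3, Rian, Malat1, Neat1, Gas5 and Mir22hg, in long-read RNA sequencing of gastrocnemius, a large calf muscle rich in fast fibres. They were chosen by gene symbol, and they are 7 of the 14675 annotated genes, and of the 1344 annotated long non-coding genes, that had at least 1 read. There was 1 group of 2 libraries and no treatment, control or second genotype. Each library came from gastrocnemius of a male B6CASTF1/J mouse, the first-generation hybrid of C57BL/6J and CAST/EiJ, aged 2 months, with 2 µg of RNA as input. The labels number the males separately but give both libraries the same donor identifier, so the spread between replicate 2 and replicate 1 may be partly technical. With no groups to compare, no test was made, and the files hold no allele of origin.

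A long non-coding RNA is transcribed and often spliced like a messenger RNA but acts as RNA, or serves as the precursor of a smaller RNA. H19, Meg3 and Rian are imprinted and transcribed from the maternal chromosome. H19 lies beside Igf2 and carries the hairpin of miR-675, whereas Meg3 and Rian lie in the Dlk1-Dio3 cluster. Malat1 is retained in the nucleus at nuclear speckles, bodies rich in splicing factors, and Neat1 is the scaffold of paraspeckles, nuclear bodies built on its long isoform. Gas5 carries small nucleolar RNAs (snoRNAs) in its introns and its spliced RNA is unstable, and Mir22hg is the host of miR-22, a microRNA abundant in striated muscle.

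In this kind of sequencing 1 read stands for 1 cDNA molecule, and the deposited tables give the number of reads assigned to each transcript model. Levels are in CPM, the number of reads in every 1000000 assigned to annotated genes, from 1402875 such reads in replicate 2 and 1107128 in replicate 1. At these depths a count of 3 corresponds to 2.14 CPM in replicate 2 and 2.71 CPM in replicate 1, which is taken here as the limit for a count of 0. Intervals are 95% and exact Poisson for levels, exact conditional for ratios and Wilson for shares, and they cover counting error only. Markers of muscle fibres dominated both libraries, with all 8 detected and a summed level of 317834 CPM in replicate 2 and 342000 CPM in replicate 1. The myosin heavy chains of the list differed between the libraries, with Myh7, the slow-fibre form, 5.64-fold (5.16 to 6.18) and Myh1, a fast form, 3.09-fold (2.91 to 3.28) higher in replicate 2, and Myh4, the fastest form, 1.24-fold (1.22 to 1.27). In whole muscle, fewer cells of a type and less RNA per cell cannot be told apart.

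The sequences of the mature microRNAs carried by the hosts are shown first, because they are the products for which H19 and Mir22hg are known. They are from RefSeq (GRCm38.p6), with the seed, bases 2 to 8, in capitals, and no pair among them shares a seed. miR-675 lies at chr7:142577112-142577133 (5p arm) and chr7:142577078-142577099 (3p arm) on the minus strand, and miR-22 at chr11:75463734-75463755 (5p arm) and chr11:75463772-75463793 (3p arm) on the plus strand.
mmu-miR-675-5p: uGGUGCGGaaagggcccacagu
mmu-miR-675-3p: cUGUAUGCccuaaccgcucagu
mmu-miR-22-5p: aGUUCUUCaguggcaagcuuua
mmu-miR-22-3p: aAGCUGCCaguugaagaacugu

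Both arms of miR-675 were found in the annotated transcript H19-202, starting at bases 1011 and 1045, within its first exon. Both arms of miR-22 were found in Mir22hg-202, starting at bases 259 and 297, within its second exon. Both hairpins are thus exonic, and a spliced read across these exons still holds the hairpin. Models that hold the whole miR-675 hairpin took 180 of 194 H19 reads in replicate 2 (92.8%, interval 88.3 to 95.7) and 106 of 119 in replicate 1 (89.1%, 82.2 to 93.5). Models that hold the whole miR-22 hairpin took 21 of 23 Mir22hg reads in replicate 2 (91.3%, 73.2 to 97.6) and 9 of 11 in replicate 1 (81.8%, 52.3 to 94.9). The microRNA genes themselves, Mir675 and Mir22, had 0 reads of their own in both libraries.

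The 7 genes took a small part of the muscle's reads. They held 507 reads in replicate 2 and 301 in replicate 1, or 0.0361% (interval 0.0331 to 0.0394) and 0.0272% (0.0243 to 0.0304) of the reads of annotated genes. All annotated long non-coding genes held 0.554% in replicate 2 and 0.504% in replicate 1, so the 7 genes were 6.52% and 5.39% of the long non-coding reads in replicate 2 and replicate 1. In mean CPM over both libraries, where a read counts as 1 molecule whatever its length, Neat1 and H19 came first, at 131 ± 41.9 and 123 ± 21.8 CPM (SD, n = 2). Malat1 (24.4 ± 6.32), Gas5 (24.3 ± 0.107) and Mir22hg (13.2 ± 4.57 CPM) came next, and Meg3 and Rian were at or below 2 reads in each library. Neighbours in this order did not differ beyond their spread in 3 places: Neat1 and H19 changed places between the libraries, Malat1 and Gas5 did too, and Meg3 and Rian were both under the level of 3 counts. Gas5 stood above Mir22hg in both libraries, but their counting intervals overlap in each.

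**Figure D1:**
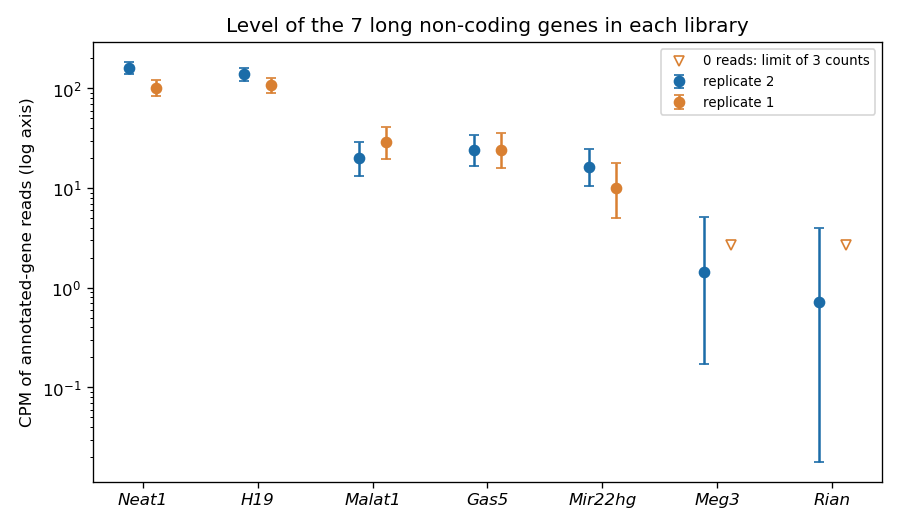
Level of each gene in replicate 2 (blue, left) and replicate 1 (orange, right), in CPM on a log axis, with 95% exact Poisson intervals; open triangles mark the level of 3 counts where a library had 0 reads. Neat1 and H19 sit near or above 100 CPM in both libraries, Malat1, Gas5 and Mir22hg between 9.94 and 28.9 CPM, and Meg3 and Rian at 1.43 and 0.713 CPM in replicate 2 with 0 reads in replicate 1.

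Per kilobase of the leading annotated transcript the order was different. Each read stands for a single cDNA molecule whatever its length, so division by length does not rank the genes by number of molecules. The order in mean CPM is the one that does so, and the values per kilobase only describe reads relative to annotated length. H19 stood at 53.8 CPM per kb of H19-202 (2286 nt) and Gas5 at 43.6 CPM per kb of Gas5-210 (557 nt). Mir22hg stood at 7.51 CPM per kb of Mir22hg-202 (1752 nt), Neat1 at 6.30 CPM per kb of Neat1-201 (20771 nt) and Malat1 at 3.50 CPM per kb of Malat1-201 (6983 nt). The deposited tables give the length of the model and not of each read, so the Neat1 and Malat1 values per kilobase rest on the length of the annotation.

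Among long non-coding genes ordered by mean CPM, Neat1 was number 8, H19 number 9, Malat1 number 32, Gas5 number 33 and Mir22hg number 63 of 1344. Ahead of Neat1 stood Prr33 (418 ± 12.1 CPM), Ndufb1-ps (343 ± 49.9), Nctc1 (159 ± 7.87), 1700020I14Rik (152 ± 56.9), 2900097C17Rik (145 ± 21.4), Cct6a (139 ± 10.7) and 2310065F04Rik (135 ± 34.3 CPM; SD, n = 2), and Tmem134 (96.0 ± 0.345), Ptpmt1 (77.4 ± 5.57) and Atcayos (70.7 ± 11.2 CPM) followed H19. Cct6a, Tmem134 and Ptpmt1 are known as protein-coding genes, and they count here because the GENCODE M21 annotation gives them a non-coding type. The order rests on that type, and whether other genes in it, such as Prr33 and Ndufb1-ps, encode a protein was not tested. Of 23 other non-coding RNA genes known by name and found in the annotation, 13 had reads, and 10, among them Miat and Kcnq1ot1, were at 0 reads. The most read after 2310065F04Rik was Sra1 (81.2 ± 13.0 CPM), a coactivator RNA whose gene also encodes a protein. The annotation types Sra1 as protein-coding and Rn7sk of the same list as misc_RNA, so neither is among the 1344. With 2 libraries no likeness of pattern between genes could be measured.

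H19 (chr7:142575529-142578143, minus strand, lincRNA) had 194 reads in replicate 2 and 119 in replicate 1. These are 138 CPM (120 to 159) in replicate 2 and 107 CPM (89.0 to 129) in replicate 1, a ratio of 1.29 (1.02 to 1.63). Of the neighbours of its cluster, Igf2, a fetal growth factor, was at 2 reads in each library. Nctc1, another non-coding gene 16.9 kb beyond the 3′ end of H19, was at 215 reads in replicate 2 and 182 in replicate 1.

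Most H19 reads were of the fully spliced 5-exon transcript. H19-202 held 172 of 194 reads in replicate 2 (88.7%) and 104 of 119 in replicate 1 (87.4%). Its introns are short, between 78 and 88 nt, and the most 3′ of them was removed in 185 of 185 reads across it in replicate 2 and in 116 of 116 in replicate 1. The intron before it was removed in 183 of 185 reads in replicate 2 and in 114 of 116 in replicate 1. The first intron of H19-202 was kept in 1 read in replicate 2 and 6 in replicate 1, beside 174 and 104 reads with it removed. A further pair of annotated introns, of 491 and 191 nt, lies inside the long first exon of H19-202, and the larger one would remove the miR-675 hairpin. Neither annotated intron was removed in any read, with 173 reads spanning each in replicate 2 and 104 in replicate 1.

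The second most-read annotated form over both libraries, H19-205, differs at the start of exon 2, where it leaves out 4 bases. The bases are shown in capitals between the last 20 bases of exon 1 and the next bases of exon 2 of H19-202, whose exon 2 begins at position 142576747 of chromosome 7 on the minus strand (GRCm38).
H19 junction of exons 1 and 2: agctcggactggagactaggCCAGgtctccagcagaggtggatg
The site of H19-205 was used by 7 reads in replicate 2, against 174 at the site of H19-202 (3.87%, 1.89 to 7.77). In replicate 1 it was used by 1 read, against 104 (0.952%, 0.168 to 5.20). The site of H19-202 led in both libraries, and the intervals overlap.

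Among the unannotated H19 models were 9 reads of a 584 nt single-exon model in replicate 2, absent from replicate 1. A 4-exon model with the last 3 introns of H19-202 removed and its first intron kept, beginning inside exon 1, had 1 read in replicate 2 and 6 in replicate 1. A 3-exon model with the last 2 introns removed had 0 reads in replicate 2 and 3 in replicate 1. In replicate 2, 2 reads were of models that begin upstream of the annotated H19 start, the farther 2167 bp upstream. Replicate 1 had 0 such reads. A single-exon model on the same strand that begins at the annotated 3′ end of H19 and runs on for 1027 nt had 6 reads in replicate 2 and 7 in replicate 1.

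Neat1 (chr19:5824708-5845478, minus strand, lincRNA) had 225 reads in replicate 2 and 112 in replicate 1, or 160 CPM (140 to 183) and 101 CPM (83.3 to 122) in replicate 2 and replicate 1. The ratio was 1.59 (1.26 to 2.01), the widest departure from 1 among the 4 genes with at least 50 summed reads. The deposited tables assign 216 (replicate 2) and 102 (replicate 1) of these to Neat1-201, the single-exon 20771 nt transcript that is the paraspeckle scaffold. An assignment to this model does not show that a read spans it, since no read ends are given.

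A part of the RNA of this locus was counted under other gene names. Between 441 and 1192 nt from the annotated start of Neat1, on its strand, the annotation holds 3 short single-exon genes of type misc_RNA. Gm28006 (chr19:5844916-5845037) had 373 reads in replicate 2 and 459 in replicate 1, more than Neat1 itself in both. Gm27533 had 13 reads in each library, and Gm27505 had 5 in replicate 2 and 10 in replicate 1. The 122 nt of Gm28006 are found whole in Neat1-201 from base 442, and are shown here because a read of Neat1 across this stretch carries the same letters (GENCODE M21, GRCm38, sense strand).
Gm28006: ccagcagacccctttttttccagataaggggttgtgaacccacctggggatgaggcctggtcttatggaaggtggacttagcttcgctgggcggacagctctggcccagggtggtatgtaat

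With these models added, the locus held 616 reads in replicate 2 and 594 in replicate 1, which is 439 CPM in replicate 2 against 537 CPM in replicate 1. The ratio was then 0.818 (0.730 to 0.918), on the other side of 1 from that of Neat1 alone. Which library had more Neat1 thus depends on whether the nested genes are counted with it. Of 4294 genes with at least 50 summed reads, 78 had reads in genes nested within them on the same strand, and in 8 of these 78, Neat1 among them, the nested genes had more reads than the gene itself.

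The spliced Neat1 reads were few, and their models shared 1 end. There were 9 spliced reads in replicate 2, on 7 models, and 10 in replicate 1, on 5 models. All of these models, within 5 nt, end at position 5842307, which is the annotated 3′ end of Neat1-202, a short spliced form of 2 exons (3004 nt). Neat1-201 is the only single-exon transcript annotated for Neat1. Unspliced reads of a short form thus cannot be told apart here from reads of the long one, and the spliced reads do not measure the short isoform. The end of a model need not be that of its reads. The 143 nt intron of Neat1-203 was removed in 3 reads in replicate 2 and 5 in replicate 1, and the 166 nt intron of Neat1-202 in 0 reads in replicate 2 and 3 in replicate 1. The last 40 bases of Neat1-202 and Neat1-201, from GENCODE M21, are shown with AATAAA or ATTAAA, the commonest polyadenylation signals, in capitals.
Neat1-202, chr19:5842307-5842346: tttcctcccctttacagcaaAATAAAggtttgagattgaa
Neat1-201, chr19:5824708-5824747: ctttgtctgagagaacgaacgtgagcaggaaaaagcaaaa
Neat1-202 holds AATAAA in its last 40 bases and Neat1-201 holds neither hexamer there. Of 141704 annotated transcripts of at least that length, 32.6% hold AATAAA or ATTAAA in the same window, searched on the sense strand. As background, the short isoform of Neat1 is polyadenylated, whereas the 3′ end of its long isoform is made by RNase P cleavage.

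Antisense models lay across the body of Neat1. They held 242 reads on 10 models in replicate 2 and 82 reads on 5 models in replicate 1, against 225 and 112 reads of Neat1 in replicate 2 and replicate 1. The antisense share of the 2 was 51.8% (47.3 to 56.3) in replicate 2 and 42.3% (35.5 to 49.3) in replicate 1. This leaves out the nested genes on the strand of Neat1. With their 391 and 482 reads counted as sense, the share was 28.2% in replicate 2 and 12.1% in replicate 1. How the strand of a read was set is not given in the sources used here, so antisense reads cannot be told apart from sense reads placed on the wrong strand.

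**Figure D2:**
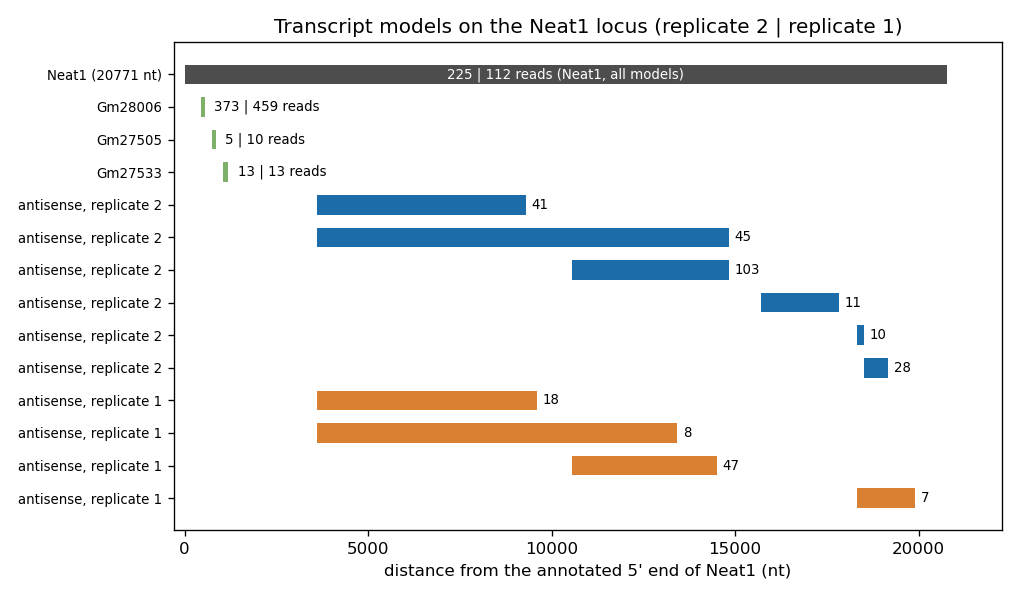
Transcript models on the Neat1 locus by distance in nt from its annotated 5′ end: Neat1 (dark), the 3 nested genes (green) and antisense models of at least 5 reads in replicate 2 (blue) and replicate 1 (orange), with reads beside each bar. The nested genes sit within 1192 nt of the start, and the antisense models lie from 3595 nt on, with 2 positions where several of them end.

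The most-read antisense models ended at the same 2 positions in both libraries. Models ending at position 5834931 held 104 reads in replicate 2 and 47 in replicate 1, and models ending at position 5841883 held 89 in replicate 2 and 26 in replicate 1. Directly after each of these ends the antisense strand holds a run of A, of 20 and 18 bases. The sequence, plus strand of chromosome 19 from GENCODE M21 transcripts, is shown from 20 bases before the end to 30 after it, with the run in capitals.
Neat1 antisense end, chr19:5834912-5834961: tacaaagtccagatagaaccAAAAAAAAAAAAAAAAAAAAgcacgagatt
Neat1 antisense end, chr19:5841864-5841913: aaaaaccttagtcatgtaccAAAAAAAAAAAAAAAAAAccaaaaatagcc
A run of at least 8 A within 20 bases after the end was present for models holding 204 of 242 antisense reads in replicate 2 (84.3%) and 73 of 82 in replicate 1 (89.0%). Over all antisense models whose following 20 bases lie in an annotated exon, such runs accompanied 26.9% of 16696 reads in replicate 2 and 24.3% of 7598 in replicate 1. The part of these A runs in the antisense reads was not tested.

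Malat1 (chr19:5795690-5802672, minus strand, lincRNA), which neighbours Neat1 on the chromosome, had 28 reads in replicate 2 and 32 in replicate 1. These are 20.0 CPM (13.3 to 28.8) in replicate 2 and 28.9 CPM (19.8 to 40.8) in replicate 1, a ratio of 0.691 (0.401 to 1.18). All were assigned to the single-exon transcript Malat1-201 (6983 nt), and the 3 annotated introns of its other transcripts were removed in 0 reads. Antisense models held 90 reads in replicate 2 and 18 in replicate 1, and most of them, 64 and 16 in replicate 2 and replicate 1, were 1 model of 979 nt at chr19:5798022-5799000. The antisense share of reads was 76.3% (67.8 to 83.0) in replicate 2 and 36.0% (24.1 to 49.9) in replicate 1, and the intervals do not overlap. Here an A run followed models with 1 of 90 antisense reads in replicate 2 and 0 of 18 in replicate 1.

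**Figure D3:**
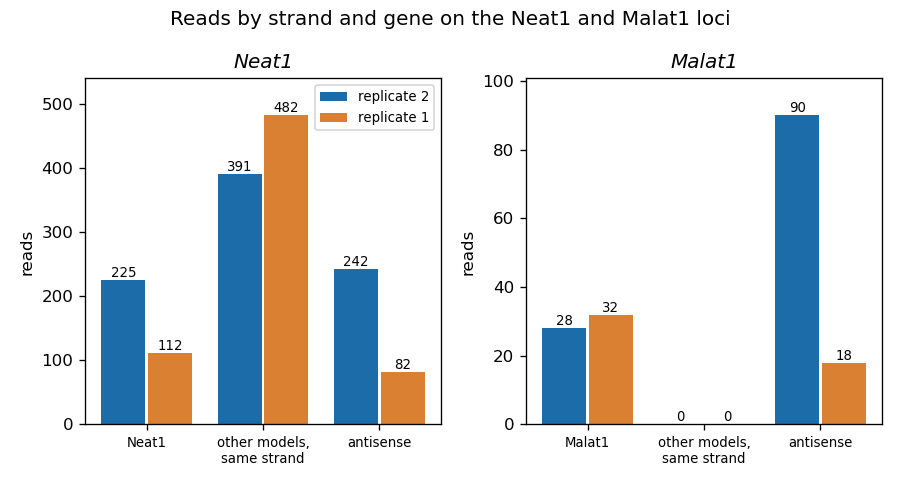
Reads of the gene, of other models on its strand and of antisense models at the Neat1 and Malat1 loci in replicate 2 (blue, left) and replicate 1 (orange, right). Antisense reads exceed those of the gene in replicate 2 at both loci, with 242 against 225 and 90 against 28, and not in replicate 1. At Neat1 they do not exceed the gene and the other models on its strand together, which hold 616 reads in replicate 2.

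An excess of antisense over sense reads was uncommon in the muscle as a whole. Of 6796 genes with at least 20 summed reads, 63 (0.927%) had more antisense than sense reads over both libraries, and 4 of 104 long non-coding genes did. Malat1 was one of them, with antisense reads of 90 and 18 against sense reads of 28 and 32 in replicate 2 and replicate 1. Neat1, with 324 antisense reads against 337 sense reads under its own name over both, was not. All unannotated antisense genes together took 2.74% of endogenous reads in replicate 2 and 1.74% in replicate 1, so the antisense share was higher in replicate 2 over the whole library too. Some antisense models have an end at an annotated exon boundary of the sense gene, 1 of 3 in replicate 2 and 1 of 2 in replicate 1 at Malat1, and 2 of 10 and 2 of 5 at Neat1, so the ends of a model need not be those of its reads.

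Malat1 also illustrates the annotated 3′ end. As background, RNase P cuts Malat1 after a tract rich in A, which stabilises the nuclear RNA as part of a triple helix, and the tRNA-like fragment downstream becomes mascRNA. The longest A run of Malat1-201 is 12 bases, at chr19:5795968-5796019 with 20 bases on each side, and it ends 298 bases before the end of the annotated transcript, which itself holds AATAAA.
Malat1 A run: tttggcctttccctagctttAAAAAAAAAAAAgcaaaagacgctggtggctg
Malat1-201, last 40 bases, chr19:5795690-5795729: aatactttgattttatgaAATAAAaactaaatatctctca
The tables do not say which of these 2 ends the 60 reads reached.

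Genes of proteins that gather with Neat1 and Malat1 were also read. Of 13 paraspeckle protein genes, 13 had reads, 12 of them in both libraries, and 8 had at least 50 summed reads, led by Hnrnpk at 151 ± 9.71 CPM, Ewsr1 at 80.3 ± 6.33, Matr3 at 50.1 ± 24.9 and Smarca4 at 49.6 ± 26.7 (SD, n = 2). Matr3 and Smarca4, 2 of these 8, were more than 2-fold higher in replicate 2, at 2.08-fold (1.41 to 3.15) and 2.23-fold (1.49 to 3.40), beside 4.01% of the 4294 genes. Of 12 nuclear speckle protein genes, 12 had reads, led by Srsf2 at 66.6 ± 13.7 CPM, and 0 of the 8 with at least 50 reads were more than 2-fold apart. Of 6 protein-coding neighbours on chromosome 19, 5 had reads, and Ehbp1l1 (349 ± 73.1 CPM) had more reads than Neat1 or Malat1 had under their own names.

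Gas5 (chr1:161034422-161038539, plus strand, processed transcript) had 34 reads in replicate 2 and 27 in replicate 1. These are 24.2 CPM (16.8 to 33.9) in replicate 2 and 24.4 CPM (16.1 to 35.5) in replicate 1, a ratio of 0.994 (0.582 to 1.71). Its few reads were spread over many forms, with 9 models sharing the 34 reads in replicate 2 and 7 sharing the 27 in replicate 1. Every one of these models was spliced. Gas5-210, with 11 exons, held 14 reads in replicate 2 and 16 in replicate 1, and Gas5-224, with 12 exons, held 9 and 6. Gas5-209, which joins exon 6 to the exon before the last, held 5 reads in replicate 2 and 1 in replicate 1.

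Gas5-224 differs from Gas5-210 by its exon 7, a 41-base exon at chr1:161037124-161037164. It is shown in capitals between the 10 bases of the exon on each side (GENCODE M21, GRCm38).
Gas5 exon 7: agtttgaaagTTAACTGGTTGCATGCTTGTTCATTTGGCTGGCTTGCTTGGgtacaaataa
Of the reads that either held this exon or joined its neighbours, 9 of 26 held it in replicate 2 (34.6%, 19.4 to 53.8) and 6 of 23 in replicate 1 (26.1%, 12.5 to 46.5). Fewer reads held the exon than skipped it in both libraries, although the interval of replicate 2 includes equal use. The intervals of the libraries overlap.

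The introns of Gas5 hold its small RNAs. The annotation places 10 small RNA genes, snoRNAs and 1 microRNA, at 9 separate places in the gene, each inside a different one of the 11 introns of Gas5-224. Reads that kept an intron place holding a small RNA were 3 of 34 in replicate 2 (8.82%, 3.05 to 23.0) and 2 of 27 in replicate 1 (7.41%, 2.06 to 23.4). Over the 12 annotated introns with at least 10 reads, 317 of 326 read passages had the intron removed in replicate 2 (97.2%). In replicate 1 this held for 248 of 253 passages (98.0%). A read passes several introns, and overlapping annotated introns are each counted, so passages are not separate molecules and no interval is given. The intron that holds Snord47 was removed in 28 of 28 reads in replicate 2 and in 23 of 23 in replicate 1.

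**Figure D4:**
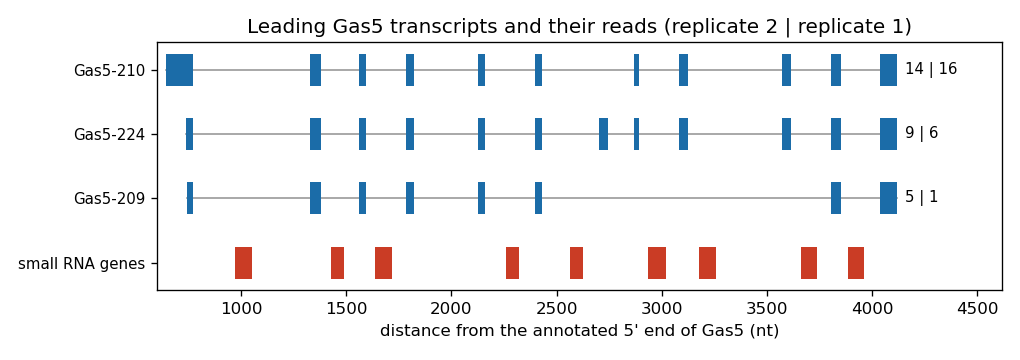
Exons (blue) of the 3 most-read Gas5 transcripts and the annotated small RNA genes (red), by distance in nt from the annotated 5′ end of Gas5, with reads in replicate 2 and replicate 1 at the right. The small RNA genes fall between the exons, and Gas5-224 has 1 exon more than Gas5-210.

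Of the other snoRNA host genes, 14 of 17 found in the annotation had reads. The most read were Snhg8 at 17.4 ± 1.61 CPM, Snhg9 at 16.0 ± 5.48, Snhg5 at 8.25 ± 1.44 and Snhg3 at 7.70 ± 3.22 CPM (SD, n = 2). Snhg10, Snhg11 and Snhg12 were at 0 reads. Gas5 had a higher mean than any of these 17, although its interval in each library overlaps those of Snhg8 and Snhg9.

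Mir22hg (chr11:75461539-75466676, plus strand, processed transcript) had 23 reads in replicate 2 and 11 in replicate 1, or 16.4 CPM (10.4 to 24.6) and 9.94 CPM (4.96 to 17.8). The ratio of 1.65 has an interval of 0.773 to 3.75. The 3-exon Mir22hg-202 held 17 reads in replicate 2 and 7 in replicate 1, and the 2-exon Mir22hg-201, which ends in a longer second exon, held 4 and 1. The first intron was removed in 21 of 21 reads in replicate 2 and 8 of 8 in replicate 1. A single-exon model of 1370 nt held 2 reads in each library, and replicate 2 had 1 read of Tlcd2-203, an annotated 5-exon transcript of the next gene, Tlcd2, that shares the first intron of Mir22hg.
Among 11 other microRNA host non-coding genes found in the annotation, 3 had reads. Mir133a-1hg, host of a muscle microRNA, stood at 6.63 ± 1.71 CPM and Dleu2, host of miR-15 and miR-16, at 5.92 ± 0.704 CPM (SD, n = 2).

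Meg3 and Rian were near the limit of detection. Meg3 (chr12:109541001-109571726, plus strand, lincRNA) had 2 reads in replicate 2 and 0 in replicate 1. One of its reads was a 7-exon RNA of 1088 nt in which 6 annotated introns were removed, in a combination not annotated as 1 transcript, and the other lay in the last exon. Rian (chr12:109603940-109661716, plus strand, processed transcript) had 1 read in replicate 2, inside its last exon, and 0 in replicate 1. Both were below the level of 3 counts in each library, so no ratio is given and a difference between libraries was not detectable at this depth. Mirg and Rtl1 of the same cluster were at 0 reads in both libraries, and Dlk1 was at 0 in replicate 2 and 2 in replicate 1. Of 25 other imprinted genes and neighbours of imprinted clusters, 15 had reads, led by Gnas at 957 ± 13.5 CPM, Dcn at 180 ± 17.6, Snrpn at 88.0 ± 14.6 and Cdkn1c at 47.7 ± 7.94 CPM (SD, n = 2).

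The reads of the 5 genes with more than 2 reads were mostly of annotated forms, whereas the 3 reads of Meg3 and Rian were all unannotated. Annotated transcripts held 89.9% to 100% of the reads of H19, Neat1 and Malat1 in both libraries, and 85.3% (69.9 to 93.6) in replicate 2 and 92.6% (76.6 to 97.9) in replicate 1 of those of Gas5. For Mir22hg the share was 91.3% (73.2 to 97.6) in replicate 2 and 72.7% (43.4 to 90.3) in replicate 1, on 23 and 11 reads. Over all 7 genes it was 93.7% in replicate 2 and 91.0% in replicate 1. Gas5 was the gene with most new combinations of annotated splice sites, 4 reads in replicate 2 and 1 in replicate 1.

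**Figure D5:**
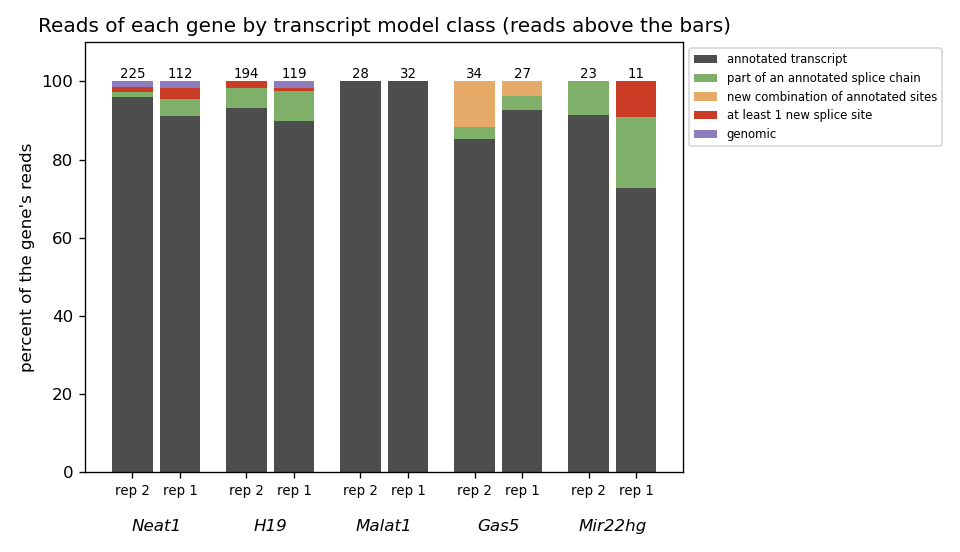
Share of the reads of Neat1, H19, Malat1, Gas5 and Mir22hg in each class of transcript model, replicate 2 left of replicate 1, with the number of reads above each bar. Annotated transcripts (dark) take at least 72.7% of each of these bars, and all of Malat1.

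Single-exon models held 257 of 507 reads in replicate 2 (50.7%, 46.3 to 55.0) and 138 of 301 in replicate 1 (45.8%, 40.3 to 51.5), against 6.10% and 5.56% of the reads of all annotated genes and 43.0% and 39.5% of those of long non-coding genes in replicate 2 and replicate 1. Most of these reads were of Neat1-201 and Malat1-201, which have 1 exon by annotation. Without Malat1 and Neat1, single-exon models held 13 of 254 reads in replicate 2 (5.12%, 3.02 to 8.56) and 4 of 157 in replicate 1 (2.55%, 0.995 to 6.37). In replicate 2, 13 of these 13 reads, and in replicate 1, 4 of 4, lay inside a last annotated exon, where an incomplete read of spliced RNA and a read of unspliced RNA look alike. The share in long non-coding genes that have multi-exon annotated transcripts and no single-exon one was 35.7% (34.5 to 36.8) in replicate 2 and 31.9% (30.6 to 33.3) in replicate 1. Over all annotated genes of this kind it was 4.16% in replicate 2 and 3.54% in replicate 1, near that of the members without Malat1 and Neat1.

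Between the libraries, 0 of the 4 members with at least 50 summed reads, H19, Malat1, Neat1 and Gas5, were more than 2-fold apart, beside 4.54% of 4294 such genes. The share of those genes higher in replicate 2 by that much was 4.01%, and the share higher in replicate 1 was 0.536%. On the log2 scale the 4 ratios (replicate 2 over replicate 1) had a median of 0.18 and a range of -0.53 to 0.66, beside a median of 0.11 for all 4294 genes. Markers of other cell types stood beside this: summed markers were 147 CPM in replicate 2 and 102 CPM in replicate 1 for endothelium, 215 and 154 CPM for smooth muscle and pericytes, 195 and 140 CPM for tendon, and 2010 and 3233 CPM for fibroblasts. Without Gsn, the most-read of the fibroblast list, that sum was 696 CPM in replicate 2 and 618 CPM in replicate 1. The smooth muscle and pericyte sum also turned without its most-read gene, Rgs5, to 48.5 CPM in replicate 2 and 56.9 CPM in replicate 1. Endothelium without Fabp4 (73.4 and 56.9 CPM) and tendon without Fmod (91.2 and 80.4 CPM) stayed higher in replicate 2. Satellite cells, leukocytes and Schwann cells stood at 57.0, 29.9 and 103 CPM in replicate 2 and 48.8, 32.5 and 93.0 CPM in replicate 1. Adipocytes stood at 2.85 and 11.7 CPM, and erythroid cells at 108 and 170 CPM. Without Pmp22, the most-read of its list, the Schwann cell sum was 50.6 CPM in replicate 2 and 53.3 CPM in replicate 1. Pax7, Cd68, Adipoq, Plin1 and Lep, markers of satellite cells, macrophages and fat cells, were at 0 reads in both libraries. Other markers on the same lists had reads. Among them were Cdh15 (satellite cell, 54 in replicate 2 and 36 in replicate 1), Lyz2 (leukocyte, 35 and 26) and Cfd (adipocyte, 4 and 13). The part of these cells in the levels of the 7 genes was not tested.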

How the data were processed

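Transcript models and their read counts were deposited by the authors for each of 2 long-read RNA libraries. The values are deposited whole-number counts of reads per transcript model, not normalised, on mm10 with GENCODE M21, and the files list models with at least 1 read; the model classes are those of TALON, as the deposited annotation files and notes give them. The sources used here do not name the aligner, the filters or how strand was set. Spike-in reads were left out. All annotated models had the exons of GENCODE M21.

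Reads were summed per gene, class and library and divided by the reads of annotated genes (CPM). Introns were read from the deposited models. Intervals used scipy 1.17.1 and TMM factors edgeR 4.0.16, and the ratio calculation was tested on simulated data. The 7 genes, and all gene lists, were chosen with earlier results of these data known. The text names the 7 genes, their leading models, the long non-coding genes of highest mean CPM and up to 4 most-read genes of each list; other nearby genes were chosen after their values were seen. The counts of the libraries differ beyond sampling error (chi-square per gene over 4294 genes, mean 11.0 and median 1.32), so they were kept as 2. The mean is far above the median, so it does not describe the typical gene. Alternatives were other scalings, minimum reads and model classes, single libraries, and the adding of neighbouring models, and counting without Neat1 or Malat1; the last 2 kinds were partly chosen after seeing the data.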

Additional observations from a re-analysis of the deposited data

How the results depend on the processing

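The mean share of the 7 genes in annotated-gene reads, 0.0317%, was 0.0446% over annotated transcripts alone and 0.0680% with neighbouring same-strand models, up to 1000 bp away, added (chosen after seeing the data), nearly all of them at Neat1. Single libraries gave 0.0272% to 0.0361%. The mean single-exon share of 48.3% was 1.06% with the genomic class alone, 1.95% with annotated single-exon transcripts not counted, 43.6% without Malat1 and 3.83% without Malat1 and Neat1, and single libraries gave 45.8% to 50.7%. Removal over the 29 annotated introns with at least 10 reads, none of them in Meg3 or Rian, was 43.6%. It was 69.9% without Neat1 (chosen after seeing the data) and 41.3% to 45.0% in single libraries. Overlapping annotated introns were each counted. The annotated share of reads, 92.4%, was 96.9% with incomplete splice matches added. The count of 0 members over 2-fold apart was 0 under every scaling, minimum and class tried. Median-ratio and TMM scaling moved 0 of 7 CPM values beyond their spread. Annotated transcripts alone moved 4 of 7, to 172 CPM for H19, 37.1 for Malat1, 187 for Neat1 and 32.8 for Gas5. Leaving out genomic reads moved 1, Gas5, to 25.0 CPM, and adding neighbouring models moved 1, Neat1, to 488 CPM. Limiting the model classes also lowered the total that reads are divided by, for these CPM values and for the share of the 7 genes. All 28 and 32 Malat1 reads were of an annotated transcript, and Gas5 had 0 genomic reads. The rise of Malat1, and that of Gas5 to 25.0 CPM, thus came from the lower total. A limit on classes can take reads from a gene but add none. The rises of H19, Neat1 and Gas5 over annotated transcripts alone, and that of the share to 0.0446%, thus came from the lower total too. No paired analysis was possible because there is 1 group. Counts of 11 to 34 reads per library limit Malat1, Gas5 and Mir22hg, and 2 libraries limit every spread.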
